A study of Sus scrofa with 4 samples.

Results

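Testis cells of 1 library from a pig testis (Sus scrofa) at 90 days of age were set against those of 1 library at 60 days. A barcode, the tag that stands for 1 captured cell, entered when it had 1000 or more unique molecular identifiers (UMIs, one per captured RNA molecule) and 500 or more detected genes. Barcodes with over 15% of their UMIs in the 13 mitochondrial genes were left out. These limits kept 11991 barcodes at 60 days and 12675 at 90 days, 24666 of the 55798 kept in the whole series and of 69602 deposited. Counts were summed over each library, and the genes that differed were then split into those carried by germ barcodes and those that differed within gated somatic barcodes.

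The series profiled whole-testis cell suspensions at 4 ages, 7, 30, 60 and 90 days, with 10x Chromium 3′ chemistry version 3 on a NovaSeq. Its design text states an interest in how the somatic niche of the pig testis changes through puberty, and the labels state 86453 captured cells for the 4 libraries, against the 69602 barcodes in the files. Only the 60-day and 90-day libraries were compared here, and neither carried a treatment or genetic change in its labels. Each age was 1 library, with the number of animals behind it not given in the sources used here, so an effect of age and one of the library cannot be told apart. No test was therefore possible, and "higher" and "lower" below state a ratio of at least 2 whose exact 95% interval excluded no change.

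Spermatogenesis starts from spermatogonia, which divide by mitosis and then enter meiosis as spermatocytes. In meiotic prophase the chromosomes form an axis of cohesins and HORMA-domain proteins, DNA is cut and repaired by recombination, and the synaptonemal complex zips the homologues together. The spermatids that follow build an acrosome and a flagellum and replace histones with transition proteins and protamines. Sertoli cells line the tubules and support these steps, Leydig cells make androgens, and contractile peritubular cells wrap the tubules.

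The kept barcodes held 41231665 UMIs at 60 days and 58026215 at 90 days, with medians of 2331 and 2661 per barcode. Levels are in counts per 1000000 summed counts (CPM), differences are log2 ratios of CPM at 90 over 60 days, and the exact 95% intervals given with them hold counting error alone. The 2 sets of kept barcodes shared 44 barcode sequences. Features without a gene symbol, 14575 in number, enter counts of genes only. Below 1000 UMIs lay 4498 barcodes at 60 days and 2606 at 90 days, and the 15% mitochondrial limit was passed by 530 and 2489.

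Barcodes were gated with marker genes of germ cells (such as DDX4 and TNP1), Sertoli (SOX9, FSHR, AMH), Leydig (CYP17A1, INSL3), stromal (DCN, COL1A1), contractile (MYH11, ACTA2), endothelial (PECAM1, CDH5), macrophage (C1QB, CD163) and T or NK cells (CD3E, NKG7). Markers were counted over a barcode and its nearest neighbours in the same library. Gate thresholds followed each library's own background, so those for germ markers were higher at 90 days. Germ barcodes made up 8.92% (8.42 to 9.45%) of the 60-day library, 1070 barcodes, and 30.0% (29.2 to 30.8%) of the 90-day library, 3797 barcodes. Their share of all counts was 11.8% at 60 days and 42.3% at 90 days, a 3.58-fold difference or 1.84 on the log2 scale. A gene counted in germ barcodes alone, with the same level per germ count at both ages, would thus differ by 1.84 between the libraries. Genes that also had counts outside germ barcodes need not follow that value. Median depth of germ barcodes was 2084.5 UMIs at 60 days and 5454 at 90 days. Of the germ barcodes of both ages, 646 lay just above the gate threshold, and the share with stricter gates was 5.85% at 60 days and 23.3% at 90 days.

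Sertoli barcodes went the other way, 24.96% (24.2 to 25.7%) at 60 days and 12.8% (12.2 to 13.4%) at 90 days. Endothelial barcodes were 1.45% at 60 days and 8.31% at 90 days, contractile barcodes 3.55% and 8.16%, and macrophage barcodes 4.03% and 1.10%. Stromal barcodes took 19.7% and 18.2%, and T or NK barcodes 3.39% and 4.81%. Leydig barcodes numbered 99 at 60 days and 339 at 90 days, and were not compared because fewer than 100 stood on 1 side. The ungated share was 32.7% at 60 days, where neutrophil genes such as AZU1, PRTN3 and S100A8 led it, and 12.9% at 90 days. In sums over a whole library, fewer cells of a type and less RNA per cell cannot be told apart.

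**Figure D1:**
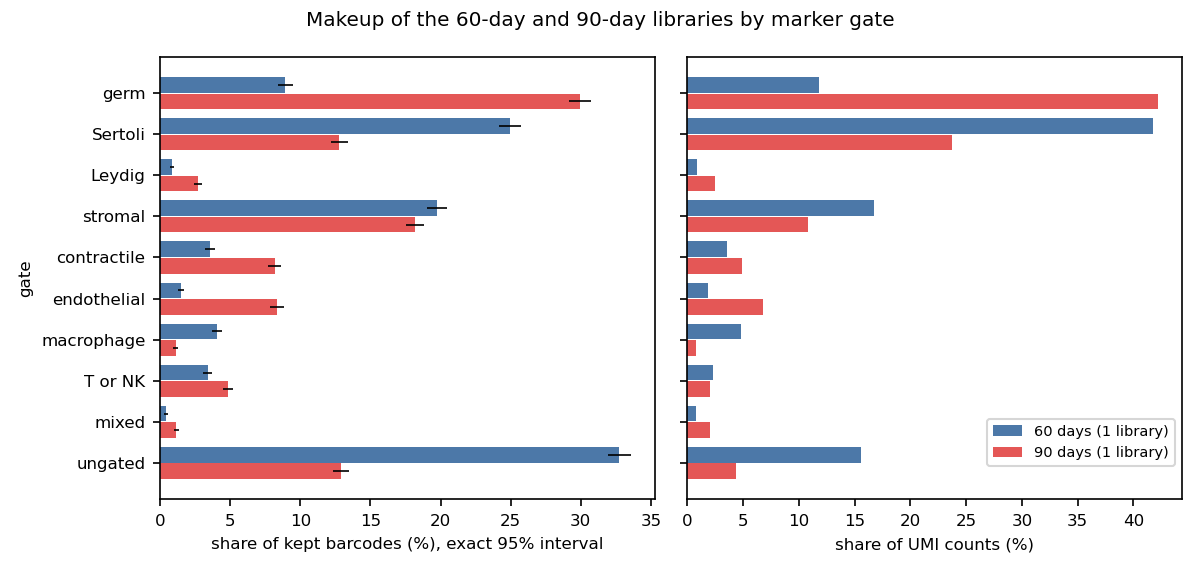
Share of kept barcodes (left, with exact 95% intervals) and of UMI counts (right) in each marker gate, with 60 days in blue and 90 days in red, 1 library each. Germ barcodes take 8.92% and 30.0% of the barcodes and 11.8% and 42.3% of the counts.

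Germ transcripts were also found outside germ barcodes at 90 days. The 9 late germ markers of the gate, among them TNP1, TNP2, PRM1 and PRM2, gave 42.4 UMIs per germ barcode at 90 days. They gave 7.48 UMIs per T or NK barcode, 7.75 per stromal barcode and 11.2 per Sertoli barcode. At 60 days no gate exceeded 0.0262. TNP1, which encodes a transition protein of spermatids, had a UMI in 97.9% of the 90-day germ barcodes and in 94.4% of the 90-day T or NK barcodes, at median depths of 5454 and 1315.5 UMIs. T or NK cells should lack it, so their share was read as background, and a UMI of a late germ gene was not read as expression outside germ barcodes.

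Over the whole library 24181 genes had at least 10 counts in both ages together, and 5185 of them (21.4%) were higher at 90 days and 2852 (11.8%) lower. The median log2 ratio of all measured genes was 0.17. The higher genes held 3.68% of the 60-day counts and 14.6% of the 90-day counts, and the lower genes 16.5% and 5.39%. Of the higher genes, 44.2% carried no symbol, against 38.8% of all measured genes. Scaling with TMM factors shifted every whole-library log2 ratio by -0.13 and left 4581 higher and 3378 lower genes.

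A gene was counted as germ-carried when germ barcodes supplied at least 50% of its CPM gain and it was no longer 2-fold higher once germ barcodes were left out of both libraries. With germ UMIs present in every 90-day gate, this held for 1093 of the 5185 higher genes (21.1%), and 4073 (78.6%) were also higher without germ barcodes. Among those 4073 genes, 2434 were below the germ level in every somatic gate in which they were higher, and 896 were higher in no somatic gate. Only 743 were at or above the germ level in a somatic gate in which they were higher.

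A second description, chosen after the data were seen, asked where each gene had its highest level at 90 days. Of the higher genes, 3502 (67.5%) had it in germ barcodes, against 34.3% of all measured genes. These 3502 genes held 2.92% of the 60-day counts and 12.2% of the 90-day counts. Within germ barcodes alone 1934 of them were also higher at 90 days and 1568 were not. Both kinds of gene recur among the meiosis genes below.

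With gate markers such as TNP1, TNP2 and HMGB4 left out of the ranking, and a minimum of 50 CPM, the 15 increases ranked highest by the end of the interval closest to no change all had their highest 90-day level in germ barcodes. DNAJB8, a testis co-chaperone on chromosome 13, had 1 count at 60 days and 12968 at 90 days, or 13.17 (10.69 to 18.47) on the log2 scale. ACR, the acrosomal protease acrosin, had 1 count and 6666 counts, and LLCFC1, needed for sperm and egg to fuse, 1 and 6662. TEX38 had no count at 60 days and 4242 at 90 days, at least 1005-fold higher against a floor of 3 counts in the library. On the same floor DNAJC5B at least 971-fold and TSSK2, a kinase of spermatids, at least 726-fold higher.

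Also in that ranking were GSG1 (4 counts at 60 days and 11250 at 90 days), TPPP2 (4 and 8467), IQCF5 (5 and 9433) and ACTRT2 (2 and 5714). They were joined by ACTL7A, an actin-related protein of the sperm head (1 and 4257), C13orf46 (1 and 4685), PRSS37 (1 and 3908) and BANF2 (2 and 4666). Germ barcodes held between 61.2% (IQCF5) and 78.5% (ACR) of the 90-day counts of the genes named here. At 60 days none of them had more than 5 counts in the whole library.

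The 4 genes of nuclear condensation that serve as gate markers were also near 0 at 60 days. TNP1 (chromosome 15, 119037492 to 119038099 in Sscrofa11.1) was at 0.509 CPM at 60 days and 1580.2 CPM at 90 days. PRM1, PRM2 and TNP2 lie next to each other on chromosome 3, between 31861087 and 31871530. PRM1 was at 0.146 and 328 CPM, PRM2 at 0.485 and 708 CPM, and TNP2 at 0.315 and 961 CPM. In the 90-day T or NK barcodes, read as background, TNP1 was at 1525.5 CPM and PRM1 at 335 CPM.

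Germ genes were grouped in 12 lists, which together held 211 genes with a feature, 205 of them measured. Of these, 151 were higher at 90 days over the whole library and 7 lower, beside 21.4% and 11.8% of all measured genes. By the stated rule 16 of the 151 were germ-carried, a smaller share than the 21.1% of all higher genes. Of the 151, 144 had their highest level in germ barcodes, beside 67.5% of all higher genes. Within germ barcodes 21590 genes were measured, of which 12.5% were higher and 27.0% lower, with a median log2 ratio of -0.29, so each list is read beside that value. Counts within germ are not particular to germ barcodes, since germ UMIs reached every gate at 90 days. TMM factors shifted the log2 ratios within germ by 0.44.

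**Figure D2:**
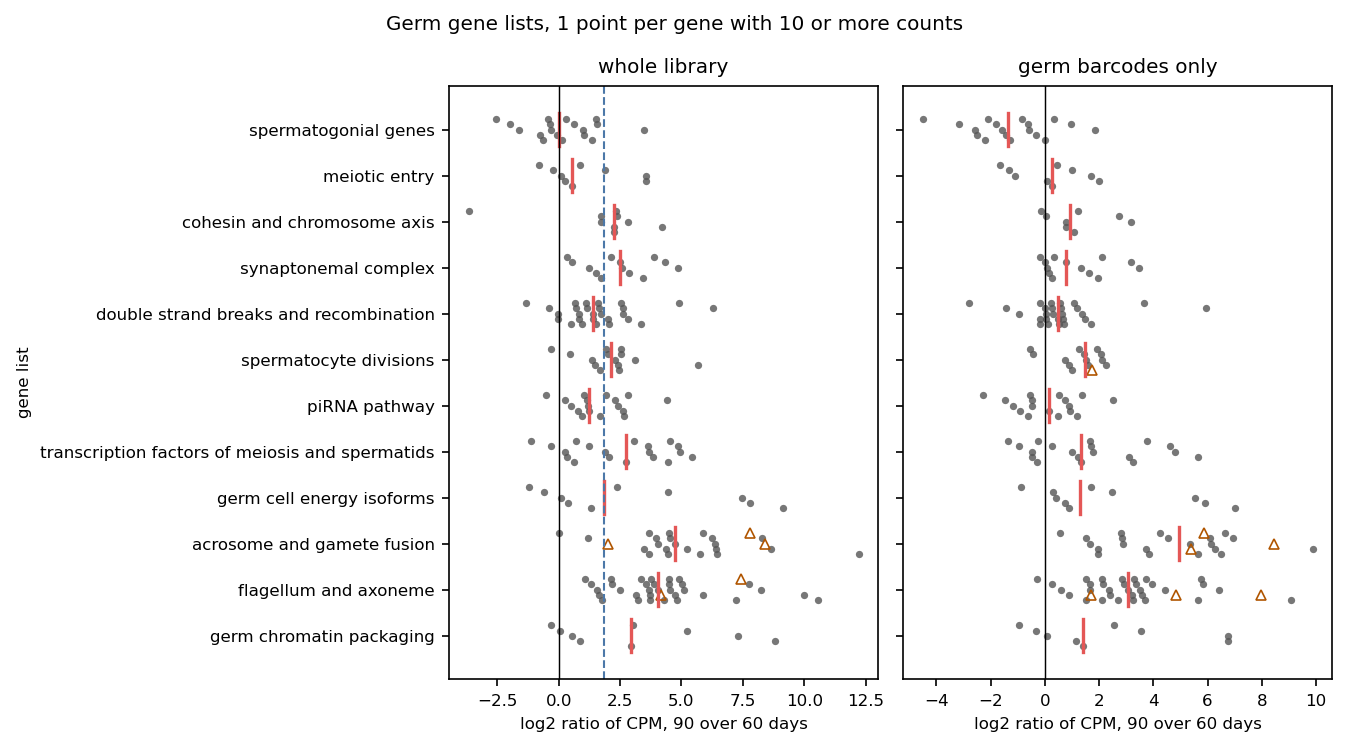
Log2 ratio of CPM, 90 over 60 days, for each gene with at least 10 counts in 12 germ lists, over the whole library (left) and within germ barcodes (right). Red bars are list medians, triangles are bounds for genes with no count at 1 age, and the dashed line marks 1.84, the log2 ratio of the germ share of counts. Acrosome and flagellum genes lie mostly right of 0 in both panels, and spermatogonial genes lie mostly left of it within germ barcodes.

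Meiotic entry differed least among the meiosis lists. Of 9 measured genes 3 were higher over the whole library and none lower, with a median of 0.52, and within germ 3 were higher and 3 lower (median 0.26). STRA8, which responds to retinoic acid at the start of meiosis, was at 1.04 CPM at 60 days and 12.2 CPM at 90 days, and at 5.95 and 19.3 CPM within germ barcodes. MEIOC, which stabilises meiotic transcripts, was at 3.30 and 38.8 CPM, and at 17.6 and 69.7 CPM within germ. Both were higher on either basis. RBM46, an RNA-binding protein of early meiosis, was at 27.5 and 100.4 CPM over the library but at 159 and 191 CPM within germ, a log2 ratio of 0.26 (0.15 to 0.37). DND1, TAF4B and CNOT6L were lower within germ, DND1 from 149 to 69.6 CPM.

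Cohesin and axis genes differed over the library in 8 of 9 cases upward, with a median of 2.27. SMC1B, a meiotic cohesin subunit, was at 52.4 CPM at 60 days and 273 at 90 days, and within germ at 298 and 507 CPM. SYCP3, the axis protein that marks spermatocytes, was at 24.0 and 80.2 CPM over the library, a log2 ratio of 1.74 (1.64 to 1.84). Within germ it was at 131 and 133 CPM, 0.03 (-0.09 to 0.16). STAG3, another cohesin subunit, likewise stood at 117 and 107 CPM within germ.

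The meiotic cohesin REC8 differed from these. It was at 6.74 and 32.2 CPM over the library and within germ had 25 and 1128 counts, a log2 ratio of 3.16. Within germ 4 axis genes were higher and none lower, with a median of 0.93, namely REC8, SYCP2, HORMAD2 and BRME1 (C19orf57 in the files). HORMAD1 was at 30.2 and 51.6 CPM within germ, 0.78 (0.53 to 1.03), short of the 2-fold mark. SYCP2L was the gene lower over the library, with 9 counts and 1 count.

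Synaptonemal complex genes were higher over the library in 11 of 13 cases and lower in none, with a median of 2.50. SYCP1, the transverse filament, was at 15.8 and 45.2 CPM over the library and at 84.5 and 74.8 CPM within germ, -0.18 (-0.33 to -0.02). SYCE3, a central element protein, was at 8.998 and 134 CPM over the library and at 49.5 and 214 CPM within germ, 2.12 (1.93 to 2.31). SYCE1, its partner, was at 54.8 and 171 CPM within germ. TEX12, also of the central element, stood at 27.3 and 27.1 CPM there.

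Genes that tie telomeres to the nuclear envelope showed the same unevenness. SPDYA, an activator of CDK2 at telomeres, was at 8.82 and 98.0 CPM within germ, 3.47 (3.04 to 3.94). KASH5, which links telomeres to dynein, had 3 and 135 counts there, a log2 ratio of 3.16 (1.58 to 5.46). TERB1 and SUN1 were not 2-fold different over the library or within germ. PSMC3IP, a cofactor of strand exchange, was at 16.6 and 64.0 CPM within germ, while its partner MND1 was at 59.7 and 62.9 CPM. MND1 was the 1 gene of this list counted as germ-carried.

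Of 27 genes of double strand breaks and recombination, 17 were higher over the library and 1, the helicase HELB, lower, with a median of 1.40. Within germ 7 were higher and 2 lower (median 0.48). SPO11, which makes the breaks, was at 0.703 and 2.93 CPM over the library (29 and 170 counts), and at 3.28 and 4.57 CPM within germ, 0.48 (-0.29 to 1.33). Of its helpers, REC114 stood at 76.3 and 76.1 CPM within germ and ANKRD31 at 106 and 127 CPM. IHO1, in the same machinery, was at 1.03 and 62.5 CPM within germ, 5.93 (4.70 to 7.55), the largest ratio of this list there.

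Strand exchange and crossover genes were divided too. DMC1, the meiotic recombinase, was at 2.01 and 12.5 CPM over the library and at 11.08 and 17.9 CPM within germ, 0.69 (0.28 to 1.12). SPATA22, which works with MEIOB, was at 73.3 and 153 CPM within germ. SPO16 (C1orf146 in the files), a crossover factor, was at 251 and 219.8 CPM within germ. CNTD1, which acts late in crossover designation, had 4 and 257 counts within germ, 3.67 (2.30 to 5.56). RAD51AP2 went the other way, from 20.7 to 3.02 CPM within germ, -2.78 (-3.23 to -2.33).

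Genes of the spermatocyte divisions were higher in 12 of 14 measured cases over the library, with a median of 2.14. Within germ 10 were higher and none lower, with a median of 1.48. BUB1, a checkpoint kinase, was at 31.2 and 133 CPM within germ, SGO2, which protects centromeric cohesion, at 89.9 and 216 CPM, and CCNB2, a partner of CDK1, at 15.6 and 75.0 CPM. CCNA1, the meiotic cyclin A, was at 20.1 and 33.4 CPM within germ, 0.73 (0.43 to 1.05). CKS2 was at 354 and 264 CPM within germ and was not 2-fold different on either basis.

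A set of 43 meiosis genes from the axis, synaptonemal and recombination lists was also counted per barcode. Over the library 35 of the 43 were higher and 1 lower, and within germ 16 were higher and 1 lower, with medians of 2.06 and 0.63. Their summed level was 503 CPM at 60 days and 1828 CPM at 90 days over the library, and 2042 and 3057 CPM within germ. Germ barcodes held 47.9% of their counts at 60 days and 70.7% at 90 days.

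To set both depths equal, each barcode was thinned to 1000 UMIs. At least 3 of the 43 genes were then found in 214 of 1070 germ barcodes at 60 days, an interval of 17.6 to 22.5%, and in 1953 of 3797 at 90 days, 51.4% (49.8 to 53.0%). Among T or NK barcodes the count was 0 of 406 at 60 days, with an interval up to 0.904%, and 113 of 610 at 90 days, 18.5% (15.5 to 21.8%). Unthinned, the germ shares were 58.0% and 91.6%, and the T or NK shares 4.19% and 34.3%. The 60-day germ interval lay above the 60-day T or NK interval. The thinned 90-day germ share lay above the 90-day T or NK share of 18.5%. Thinning sets depth equal, but not the share of a barcode's UMIs that is background. Median depths at 90 days were 5454 UMIs in germ and 1315.5 in T or NK barcodes, so the T or NK share does not measure the background of germ barcodes. The intervals are over barcodes within a library, not over animals. Outside these gates, the thinned 90-day shares ran from 2.95% in Leydig barcodes to 29.8% (27.6 to 32.1%) in ungated barcodes.

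The label of the comparison names the onset of meiosis, and the counts place meiosis genes in germ barcodes of both ages. Unthinned, 347 germ barcodes at 60 days held UMIs of at least 5 of the 43 genes, with a median of 6680 UMIs. At 90 days 3010 did, with a median of 6803.5. Both medians lay above those of all germ barcodes, 2084.5 and 5454 UMIs, so depth enters these counts. Thinned to equal depth, 24 of 1070 germ barcodes (2.24%) held at least 5 at 60 days and 542 of 3797 (14.3%) at 90 days. Among thinned T or NK barcodes 0 of 406 and 9 of 610 did. Both 90-day germ counts stand on the germ background described above.

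**Figure D3:**
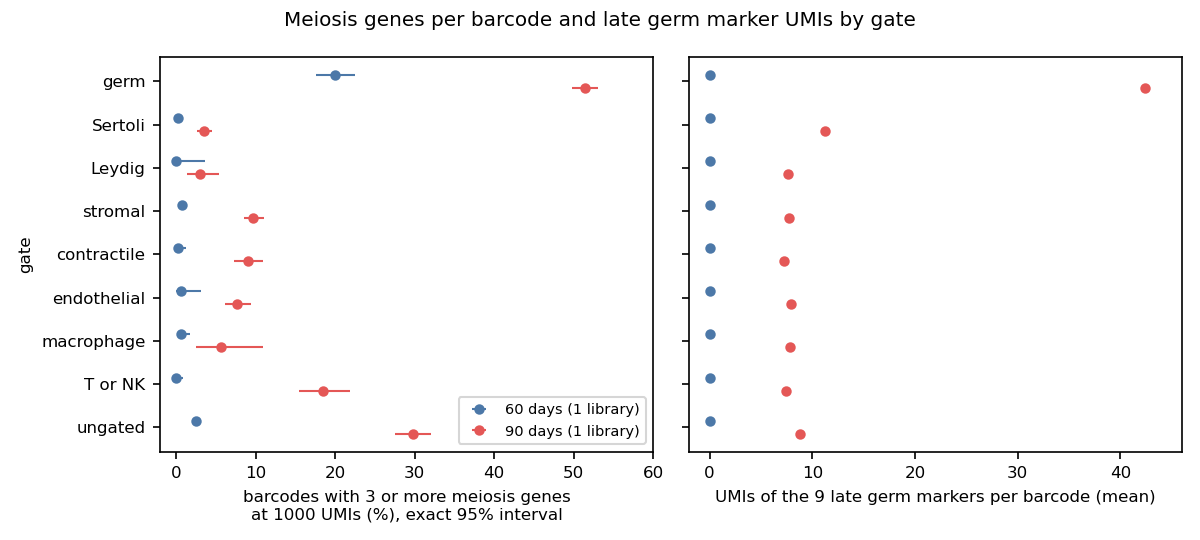
Left, share of barcodes with at least 3 of 43 meiosis genes after thinning to 1000 UMIs, with exact 95% intervals; right, mean UMIs of the 9 late germ markers per barcode, by gate, with 60 days in blue and 90 days in red. Germ barcodes stand at 214 of 1070 (60 days) and 51.4% (90 days) on the left, and at 90 days every somatic gate holds late germ marker UMIs on the right.

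The piRNA pathway guards germ cells against transposons with small RNAs. Of its 17 measured genes 12 were higher over the library and none lower, with a median of 1.25, but within germ 2 were higher and 3 lower (median 0.15). PIWIL2, a PIWI protein of fetal and spermatogonial germ cells, was at 21.1 and 48.3 CPM over the library and at 127 and 87.4 CPM within germ. GTSF1, a PIWI cofactor, was at 35.5 and 204 CPM within germ, 2.52 (2.30 to 2.75), and TDRKH at 22.0 and 56.2 CPM. PNLDC1, which trims piRNAs, was at 14.6 and 3.02 CPM within germ, and HENMT1 and STK31 were also lower there. With TMM factors 5 were higher and 2 lower within germ.

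Transcription factors of meiosis and spermatids were higher over the library in 13 of 19 measured cases, with a median of 2.73, and within germ 11 were higher and 1 lower (median 1.35). TCFL5, a spermatocyte factor, was at 42.7 and 138 CPM within germ, RFX2, which drives ciliary genes, at 6.36 and 60.0 CPM, and BRDT, a testis bromodomain protein, at 93.2 and 217 CPM. HDAC11 had the clearest difference within germ after FHL5, 3.28 and 91.5 CPM, 4.80 (4.10 to 5.61). MYBL1, the pachytene activator, was at 40.0 and 29.0 CPM within germ and was not 2-fold different over the library. TAF7L, listed for its part in spermatids, was lower on both bases, at 208 and 94.3 CPM over the library, and only 14.6% of its 90-day counts were in germ barcodes.

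Some germ isoforms of energy enzymes had few counts at 60 days. PGK2, the testis phosphoglycerate kinase, was at 0.437 and 77.9 CPM over the library, 7.48 (6.82 to 8.24), and GAPDHS, its counterpart for GAPDH, had 4 and 3164 counts, 9.13 (7.78 to 11.01). COX6B2, a testis subunit of cytochrome oxidase, was at 65.5 and 366 CPM within germ. Of 10 measured genes 6 were higher over the library and 1, ALDOA, lower, and within germ 5 were higher and none lower.

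Acrosome and gamete fusion genes had the largest list median over the library, 5.24, or 4.72 with genes at no count set to their bound. Of 25 measured genes 24 were higher and none lower, and within germ 23 of 24 were higher, with a median of 4.96. The count was much the same in gates where late germ UMIs were read as background, 22 of 24 in T or NK, 23 of 24 in stromal and 22 of 24 in Sertoli barcodes. The summed level was 264 and 3929.6 CPM in germ and 123 and 2147 CPM in T or NK barcodes. CRISP2, a secreted protein of the acrosome and tail, was at 0.994 and 307 CPM over the library and at 4.72 and 470.3 CPM within germ, 6.64 (6.05 to 7.30). DKKL1 was at 20.9 and 471 CPM over the library and IZUMO4 at 5.77 and 338 CPM. TMEM190 had 12 and 6773 counts. SPACA5 and IZUMO3 had no count at 60 days, and were at least 224-fold and at least 336-fold higher over the library. IZUMO1, which binds the egg, had no count at 60 days and 17 at 90 days.

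Flagellum and axoneme genes were higher over the library in 35 of 35 cases, with a median of 4.04, and within germ in 31 of 35, with a median of 3.22 (3.07 with bounds). Again 27 of 29 were higher in T or NK, 34 of 35 in stromal and 28 of 34 in Sertoli barcodes. AKAP4, the main protein of the fibrous sheath, was at 0.243 and 72.3 CPM over the library, 8.22 (7.34 to 9.28), and at 1.23 and 106 CPM within germ. SMCP, of the mitochondrial sheath, had 4 and 5801 counts. ODF2, of the outer dense fibres, was at 70.4 and 538 CPM within germ, and GSTM3, the highest member, at 164 and 1176 CPM. CATSPER3, part of the sperm calcium channel, was among the 4 that were not higher within germ, at 25.4 and 30.7 CPM, and TTLL1, a tubulin-modifying enzyme, was another, at 101 and 82.9 CPM.

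Chromatin packaging genes had 5 of 9 members higher over the library and 6 of 9 within germ, with medians of 2.95 and 1.40. PHF7, a reader and writer of histone marks in spermatids, was at 53.4 and 620.3 CPM within germ, 3.54 (3.36 to 3.72). H1-7, the spermatid linker histone, had 6 and 3285 counts there. CHD5, a remodeller active before histone removal, was at 54.2 and 119.6 CPM. The proteasome activator PSME4 stood at 38.0 and 40.0 CPM.

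Spermatogonial genes differed from all other germ lists within germ barcodes. Of 18 measured genes 1 was higher and 10 were lower there, with a median of -1.36, beside -0.29 for all genes within germ, and over the library 5 were higher and 3 lower (median 0.03). PIWIL4, of early spermatogonia, was at 60.9 and 2.69 CPM within germ, -4.50 (-4.91 to -4.11), FGFR3 at 63.8 and 7.06 CPM, and GFRA1, the GDNF receptor of undifferentiated spermatogonia, at 12.7 and 2.16 CPM. RET, its co-receptor, was at 28.1 and 7.99 CPM. KIT, of differentiating spermatogonia, stood at 72.4 and 71.9 CPM within germ and at 15.8 and 40.8 CPM over the library. SOHLH2, which drives differentiation, was the higher member within germ, at 12.3 and 44.5 CPM, 1.85 (1.48 to 2.25). With TMM factors 2 were higher and 9 lower within germ. Stromal markers in the germ gate were also lower, at 1339.6 and 238 CPM, and Sertoli markers stood at 633 and 498 CPM, and their part in these differences was not tested.

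Replication and mitosis genes differed between the gates. Over the library 11 of 16 were higher and none lower, with a median of 1.22, and without germ barcodes 2 were higher, with a median of 0.23. By the rule, 9 of the 16 were germ-carried, beside 1093 of all 24181 measured genes. TOP2A was at 99.9 and 274 CPM over the library, at 155 and 486 CPM in germ barcodes, and at 76.8 and 42.5 CPM in Sertoli barcodes. CENPF, of dividing kinetochores, was at 183 and 402 CPM in germ and at 63.5 and 30.8 CPM in Sertoli barcodes. Within germ 7 were higher, or 14 with TMM factors, and in the Sertoli gate 1 was higher and 4 lower.

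Within somatic gates 6703 genes were higher and 3389 lower in at least 1 of the 6 gates compared. Of the 6703, 2555 were at or above the germ level in the gate concerned, and 3019 were not higher over the whole library. Of the 3389, 1809 were not lower over the whole library. Beside all of the gains stand the late germ marker UMIs of 7.22 to 11.2 per barcode in these gates at 90 days, and their part in the gains was not tested. The leading genes of each gate, given first in each paragraph, were at least as high in their gate as in germ barcodes and in the rest of the library.

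The Sertoli gate held 2993 barcodes and 17205536 counts at 60 days and 1620 barcodes and 13753849 counts at 90 days. Of 18730 measured genes 20.9% were higher and 10.6% lower. ALDH1A1, which makes retinoic acid, was at 24.1 CPM at 60 days and 837 at 90 days, 5.12 (4.98 to 5.27). SULT4A1, a sulfotransferase family member, was at 2.09 and 92.5 CPM, MRC1, a mannose receptor, at 0.814 and 72.7 CPM, and EPB41L3, a membrane skeleton protein, at 9.42 and 152 CPM. TBATA and TPMT completed the 6 increases, at 1.74 and 52.0 CPM and at 3.89 and 73.0 CPM.

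The Sertoli decreases were larger. NXNL2 was at 155 CPM at 60 days and had 3 counts at 90 days, -9.47 (-11.75 to -7.92). SCN7A, a sodium channel, was at 151 and 1.24 CPM, KRT8, a keratin of epithelia and of immature Sertoli cells, at 256 and 3.34 CPM, and CCND2, a cyclin of proliferation, at 476 and 7.71 CPM. SPON2 was at 144 and 1.89 CPM and SMOC1 at 50.6 and 0.436 CPM. CCND2 did not follow in the contractile gate, where it was at 394 and 530.1 CPM.

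Of 12 measured immature Sertoli genes, 6 were lower in the Sertoli gate and 1 higher, with a median of -1.16. INHA, the inhibin alpha subunit, was at 2179.5 and 606 CPM there and at 1308 and 206 CPM over the library. FST, EGR3 and INHBB were lower beside KRT8 and CCND2, and NCAM1 was higher, at 23.2 and 47.3 CPM. AMH, a gate marker made by immature Sertoli cells, was at 605 and 107 CPM over the library. AMHR2, its receptor, was at 107 and 10.9 CPM in the Sertoli gate.

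Genes of Sertoli maturity and support did not move as a group, with 3 of 17 higher, 2 lower and a median of 0.18 in the Sertoli gate. ESPN, of the actin bundles at spermatid contacts, was at 35.5 and 222 CPM, and GJA1, a gap junction protein, at 53.8 and 161 CPM. GDNF, the niche factor that binds GFRA1 and RET, was at 4.48 and 0.364 CPM, -3.62 (-5.28 to -2.34). CLDN11, of the blood-testis barrier, stood at 1328 and 1283 CPM. Retinoid genes were higher in 8 of 18 cases and lower in 2, among them CRABP1 at 407 and 1007 CPM and RARB at 1.22 and 12.0 CPM. CYP26B1, which degrades retinoic acid, was at 23.3 and 3.64 CPM in the Sertoli gate and at 656 and 613 CPM in the contractile gate.

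The stromal gate held 2364 and 2303 barcodes, and of 17603 genes 19.8% were higher and 5.45% lower. NPTX1, a pentraxin, was at 7.54 and 319.8 CPM, MFAP5, of elastic microfibrils, at 20.4 and 291 CPM, and SEMA3G, a semaphorin, at 17.0 and 245 CPM. MPZL2, ITM2A and XG were the other increases. SOCS3, a brake on cytokine signalling, was at 523 and 68.8 CPM, and CXCL10, an interferon-induced chemokine, at 346 and 50.8 CPM. LRRN1, HAS1, LRRN3 and IGFBP2 were also lower. Of 20 fibrillar matrix genes 4 were higher in this gate (MFAP5, FN1, ELN and POSTN) and 1 lower (COL6A3), while in the Sertoli gate 11 of 19 were lower and 3 higher. Stromal markers inside the Sertoli gate stood at 624 CPM at 60 days and 152 CPM at 90 days, and their part in the lower matrix genes there was not tested.

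The contractile gate held 426 and 1034 barcodes, and of 14256 genes 20.2% were higher and 6.06% lower. Its muscle contraction genes were higher in 9 of 15 cases and lower in none, with a median of 1.17, beside 0.27 for all genes of the gate. MYL9, a myosin light chain, was at 365 and 1235 CPM, TPM2, a tropomyosin, at 1062 and 2489 CPM, and CSRP1 at 289 and 1026 CPM. Over the whole library only CASQ2 of this list was higher. NPTX1 was at 15.7 and 599.5 CPM here too, and LIMS2, of integrin contacts, at 31.4 and 229 CPM. PLAT, a plasminogen activator, was at 391 and 37.2 CPM, ANGPTL4 at 234 and 23.8 CPM and SOCS3 at 616 and 83.7 CPM. The stromal markers of the gate summed to 14389 CPM at 60 days and 6330 at 90 days, and the contractile markers to 6423 and 15320 CPM, and the part of this makeup in the differences was not tested.

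The endothelial gate held 174 and 1053 barcodes, and of 14254 genes 11.7% were higher and 3.28% lower. ACKR1, a chemokine receptor of venules, was at 6.48 and 75.5 CPM on 5 and 296 counts, and CAVIN3, of caveolae, at 119 and 552 CPM. CCL21, a chemokine of lymphatic vessels, was at 931 and 226 CPM, CCL2 at 303 and 59.9 CPM, and ECRG4 at 315 and 27.0 CPM. CCL21 led the genes that set this gate apart at 60 days, and CLDN5 did at 90 days. The part of makeup within the gate in these differences was not tested. Cholesterol genes were higher in 7 of 24 cases in this gate and lower in none, with a median of 0.62, beside 0.17 for all its genes.

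The macrophage gate was the smallest at 90 days, with 483 and 140 barcodes, and of 11616 genes 10.8% were higher and 4.7% lower. APOE, a lipid carrier, was at 444 and 38.9 CPM, CXCL9, induced by interferon gamma, had 728 and 1 counts, and ABCA9 had 195 counts and none, at least 14.4-fold lower against 3 counts in the gate. SELENOP, a selenium carrier, was at 814 and 238 CPM. TNF was at 32.4 and 124 CPM and S100A4 at 292 and 847 CPM. S100A12 and LTF, genes of neutrophils, were at 118 and 489.8 CPM and at 12.7 and 73.2 CPM, but both turned lower under another barcode filter, without likely doublets, and with other gates (log2 -1.57 and -2.46 at 1000 genes and 10% mitochondrial UMIs).

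The T or NK gate held 406 and 610 barcodes, and of 12175 genes 19.2% were higher and 6.33% lower. RGS5 and PDGFRB, genes of pericytes, were at 26.4 and 362 CPM and at 14.8 and 57.9 CPM, and with gates by cluster RGS5 had a log2 ratio of 0.09 and PDGFRB one of -2.46. The gate's own markers summed to 6869 CPM at 60 days and 6171 at 90 days, and the contractile markers in it to 232 and 209 CPM. STAT4, a signal transducer of T cells, was at 23.2 and 80.9 CPM. PFN1, an actin-binding protein, was at 829 and 278 CPM, and MX1, an interferon-induced gene, at 205 and 53.6 CPM.

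**Figure D4:**
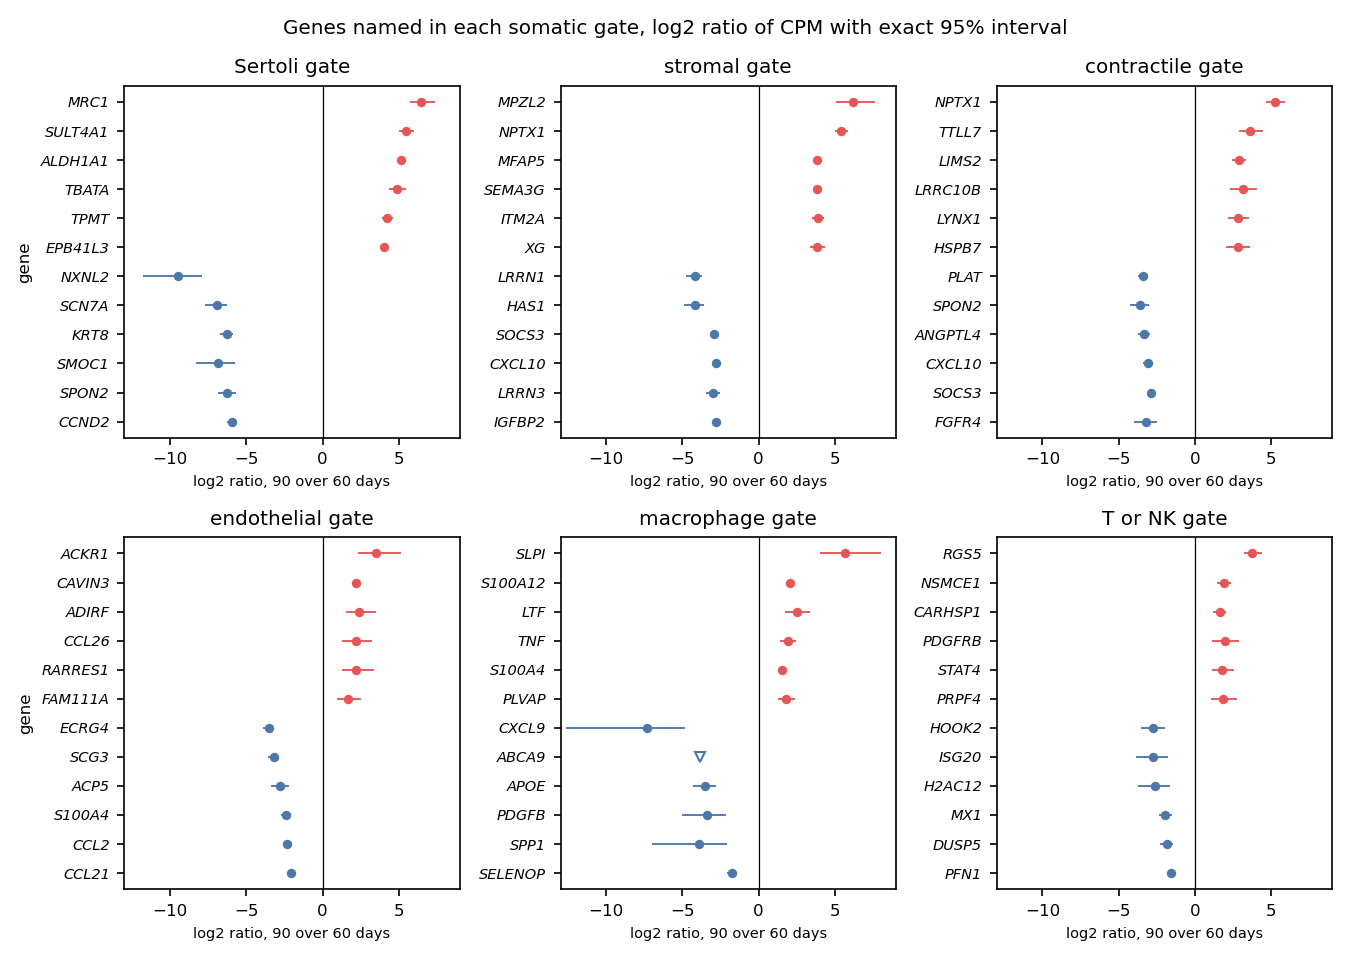
Log2 ratio of CPM, 90 over 60 days, for the 6 leading increases (red) and 6 leading decreases (blue) in each somatic gate, with exact 95% intervals for counting error; the open triangle is a bound. The Sertoli decreases reach -9.47 (NXNL2), and the endothelial and T or NK genes lie closer to 0. S100A12, LTF and PDGFRB change side under the alternatives named in the text.

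Immediate early genes, which cells switch on within minutes of a stimulus, had a negative median over the library, within germ and in all 6 somatic gates. Over the library 18 of 18 were lower, with a median of -2.22, and within the Sertoli gate 17 of 18, with a median of -2.18. FOS was at 6114 and 1251 CPM over the library, JUN at 3544 and 1157 CPM, EGR1 at 2473 and 506 CPM and ATF3 at 1573 and 102 CPM. In the stromal gate 14 of 18 were lower, in the contractile gate 14 of 17, in the T or NK gate 12 of 17, in the endothelial gate 8 of 18 and in the macrophage gate 7 of 17, and none was higher in any. Within germ 18 of 18 were lower, FOS from 1944 to 207 CPM. The germ barcodes also held stromal markers at 1339.6 CPM at 60 days and 238 at 90 days, and the part of RNA from other cells in that difference was not tested.

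Interferon response genes were lower in 9 of 16 cases over the library and higher in none, with a median of -1.04. IFI6 was at 5510.3 and 722 CPM over the library and at 7808 and 810.5 CPM in the Sertoli gate, and B2M, of class I antigen presentation, at 1041 and 119.97 CPM there. The contractile gate had 12 of 15 lower, the Sertoli gate 10 of 16 lower and GBP1 higher, the stromal gate 9 of 16 lower and the T or NK gate 8 of 15 lower. In the endothelial and macrophage gates 1 of 16 was lower in each.

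Other somatic lists differed by gate. Basement membrane genes were lower in 7 of 16 cases in the Sertoli gate and higher in 1, LAMA5, with LAMA1 at 269.6 and 77.4 CPM and COL4A1 at 69.4 and 10.8 CPM, beside the stromal markers in that gate given above. Of 17 genes of steroid synthesis 4 were higher over the library and 2 lower, with STAR, the cholesterol importer, at 11.9 and 32.3 CPM, and 2 were higher with TMM factors. The Leydig markers INSL3 and CYP17A1 were at 290.3 and 511 CPM and at 69.0 and 204 CPM over the library, where Leydig barcodes numbered 99 and 339. LHCGR, of the same marker set, went the other way, at 9.58 and 7.38 CPM over the library. Beside the 21.4% of all measured genes that were higher, the steroid count is near the background. Cholesterol genes were higher in 3 of 24 cases, a smaller share than that of all genes, among them CYP51A1 at 48.6 and 140.4 CPM. Hormone and growth factor receptors were lower in 5 of 20 cases and higher in none, AMHR2, INSR, FGFR1, THRB and PRLR. Heat shock genes were divided, 2 higher and 2 lower of 14, with HSPB1 at 1246 and 379.6 CPM and the testis gene HSPA1L at 2.57 and 33.2 CPM.

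**Figure D5:**
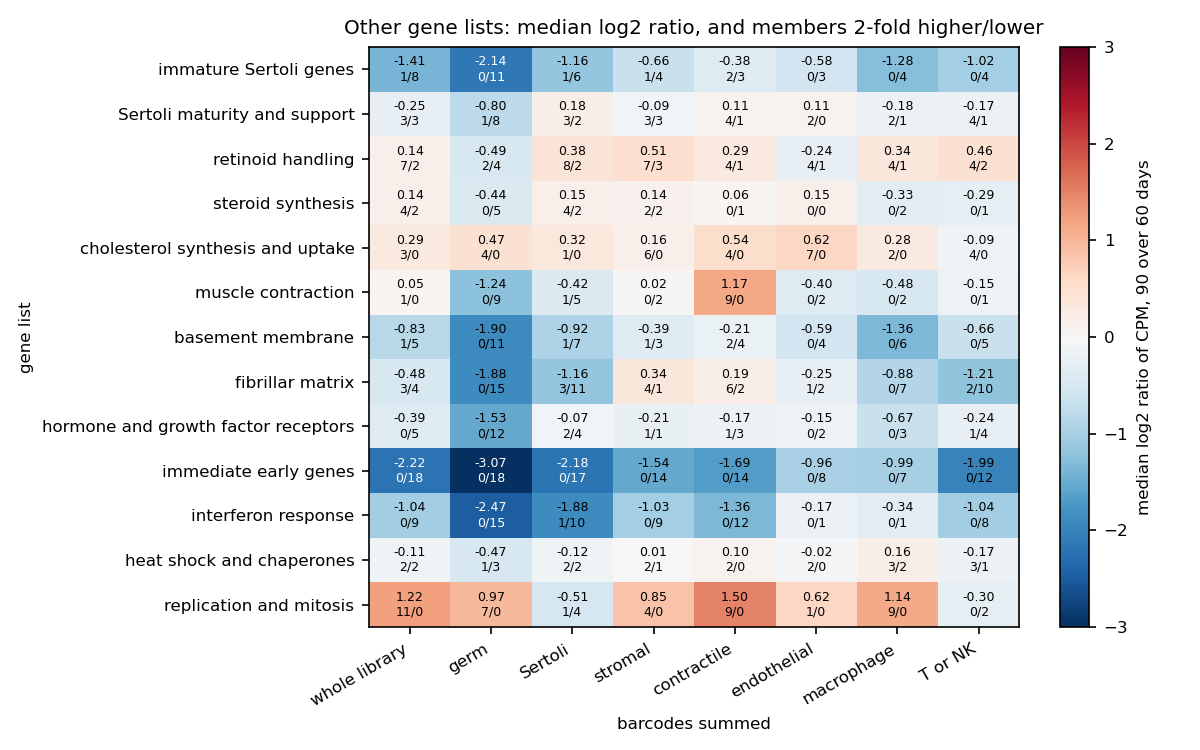
Median log2 ratio of CPM, 90 over 60 days, of 13 other gene lists (rows) over the whole library and within each gate (columns), with the number of genes at least 2-fold higher and lower under each value. Immediate early genes are negative in every column (-2.22 over the whole library), and muscle contraction genes are positive mainly in the contractile gate (1.17).

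The largest decreases over the library were mostly genes of Sertoli barcodes. NXNL2 was at 96.8 and 0.965 CPM, -6.65 (-7.06 to -6.27), CHGA, a granin of secretory vesicles, at 526 and 23.7 CPM, and SPON2 at 107 and 6.27 CPM. In the Sertoli gate CHGA was at 856 and 28.3 CPM, so the difference was present with Sertoli barcodes taken alone. MARCO, SCN7A, OLFML2B, FILIP1L, ITPRID1, AMHR2 and DUSP5 were likewise at 84.9 to 427 CPM in the 60-day Sertoli gate and at 1.24 to 25.7 CPM in the 90-day one. S100A12 was at 55.5 and 3.81 CPM over the library, CCL8 at 52.5 and 4.03 CPM and CXCL10 at 102 and 10.8 CPM, all 3 below 10 CPM in Sertoli barcodes. Of the 2852 lower genes 1580 were lower in at least 1 somatic gate, where 3389 of all genes were lower. Within germ 2029 of them were lower, beside 27.0% of all genes measured there. With germ barcodes left out 1394 were still lower, and the part of the larger germ share in the rest was not tested.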

How the data were processed

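The authors deposited UMI counts per gene and barcode for each library, made with Cell Ranger 5.0.1 per the file headers. The submitters' processing notes name bcl2fastq, Scanpy 1.7.1 and the build Sscrofa11.1, and sequences were not analysed here. From the deposited counts, barcodes were filtered, summed per library and per gate, and compared as CPM with exact conditional binomial intervals (SciPy 1.17.1), for genes with at least 10 counts. No test across animals was possible with 1 library per age.

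Marker UMIs were averaged over a barcode and its 15 nearest neighbours of the same library (Scanpy 1.11.5, 30 components of 2000 variable genes). The germ gate needed 3-fold and somatic gates 5-fold the library's background, its 25th percentile, thresholds set after marker counts were seen. Somatic gates also needed 10% of a reference level, the 99.5th percentile over both libraries. A background under 0.2 UMIs per barcode was set to 0.2. Germ markers had a background of 0 at 60 days. At 90 days it was 7.125 for the 9 late germ markers and 0.9375 for the others, so the germ thresholds in UMIs differed between the ages. A barcode passing several gates went to the gate whose threshold it passed by the largest factor. A barcode was called mixed where markers of several cell types reached 30% of their reference levels, with stromal and contractile counted as a single type. Scrublet's automatic threshold called no doublet at 60 days and 828 at 90 days, so doublets were kept, and an alternative left out the 1150 and 1285 highest scores. TMM factors came from edgeR 4.0.16. The scripts were tested on simulated data.

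Members, gene lists and rules were chosen with earlier results of these data known. The text names the 15 largest increases and decreases over the library and 6 each way per gate, with at least 50 CPM, ranked by the end of the interval closest to no change. From each list it names members by role, with the 2 highest and the 2 largest ratios, and gate markers, which are kept out of the rankings, only as levels or shares of barcodes. Some genes that this rule selects are not reported here.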

Additional observations from a re-analysis of the deposited data

Results flagged for a closer look

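Several genes differed in opposite directions in 2 gates, and none of these differences between gates was tested. ITM2A, a membrane protein, was higher at 90 days in the stromal gate, at 7.97 and 117 CPM, and was at 28.9 CPM and no count in the macrophage gate, a log2 bound of -2.07. RARRES1 was higher in the endothelial gate, at 11.7 and 54.3 CPM, and lower in the Sertoli gate, with a log2 ratio of -1.71. FAM111A was higher in the endothelial gate, at 20.7 and 66.3 CPM, and lower in the contractile gate, at -2.13. S100A4 was lower in the endothelial gate, at 219 and 41.3 CPM, and higher in the macrophage gate, with a log2 ratio of 1.53.

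S100A12 was higher in the macrophage gate, with a log2 ratio of 2.06, and lower in the stromal gate, at -6.13, and its macrophage value changes side with the processing. PDGFRB was higher in the T or NK gate, at 1.97, and lower in the contractile gate, at -1.25, and in the endothelial gate, at -1.05, and its T or NK value changes side with gates by cluster.

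A signal also stood in barcodes that the filter left out. The 9 late germ markers were at 6040 CPM in the 4819 left-out barcodes at 90 days and at 4.46 CPM in the 4848 left out at 60 days.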

How the results depend on the processing

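Of 1032 values of the 102 named gene results under the alternatives, 1015 kept direction and call, 6 lost the call and 11 reversed. S100A12 in the macrophage gate reversed to -1.57 with a minimum of 1000 genes and a limit of 10% mitochondrial UMIs, -1.41 without the highest doublet scores, -1.65 at 2000 UMIs, -1.69 with stricter gates and -2.18 with gates by cluster. LTF there reversed to -2.46, -2.20, -2.39, -2.57 and -2.9955 in the same order, and PDGFRB in the T or NK gate to -2.46 with gates by cluster, and the cause was not tested. Genes higher in at least 1 somatic gate numbered 4325 with at least 50 counts, where fewer genes are tested, and genes lower over the library 4570 at a fold of 1.5. The germ share at 60 days was 8.27% at 2000 UMIs, 9.67% without the highest doublet scores, 8.20% with gates by cluster and 5.85% with stricter gates. At 90 days it was 34.4%, 31.2%, 33.8% and 23.3% in that order, and 32.8% with the limits of 1000 genes and 10% mitochondrial UMIs. Germ-carried genes numbered from 796 with stricter gates to 1584 at a fold of 1.5. Within germ barcodes, TMM factors moved the cholesterol genes called higher from 4 to 11. The alternative without doublet scores and the description by highest level were chosen after seeing the data, and the planned removal of automatic doublet calls was not run. With 1 library per age no replicate could be left out. No paired analysis was possible because each age was 1 library.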

Other observations

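Genes on the X chromosome, which is silenced in male meiosis, were counted as a description. By RefSeq symbol, Sscrofa11.1, 3.403% of the measured genes with a known chromosome lay on the X, against 2.33% of the higher, 4.501% of the lower and 2.03% of the germ-carried genes. The X held 3.16% of counts with a chromosome at 60 days and 2.64% at 90 days. Within germ barcodes it held 2.42% and 2.11%, and in the 443 germ barcodes of the 90-day library that passed the gate on late markers 1.64%. In Sertoli barcodes it held 3.22% and 3.24%. The other somatic gates compared were lower at 90 days, so a lower X share was not particular to germ barcodes. It was 3.86% and 3.09% in T or NK, 4.03% and 3.46% in macrophage and 3.14% and 2.76% in stromal barcodes. Contractile barcodes had 3.27% and 2.91%, and endothelial barcodes 3.34% and 3.02%.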
